A study of Rattus norvegicus with 40 samples.

Results

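Tumor nodules that grew in the same rat liver under the carcinogen diethylnitrosamine (DEN) were compared with each other by RNA-seq. All libraries labelled T1 or T2 at 14 and 20 weeks were taken, which gave 16 of the 40 libraries of the series, as 8 pairs of nodules from 8 of its 24 rats. Male Fischer 344 rats aged 7 weeks received 50 mg/kg DEN each week into the peritoneum. The 14-week rats (F06, H21, H22 and H23) had 14 weeks of injections, and the 20-week rats (F03, H25, H26 and H28) had the same course and then 6 weeks without DEN, so that each week holds 4 pairs. Non-tumoral (NT) liver of the same 8 rats, which had received the same injections, and liver of 8 rats of the same ages given no DEN (4 per week, "untreated" in what follows) served as background. A nodule was 1 bulk piece of tissue and 1 library, so that fewer cells of a type and less RNA per cell cannot be told apart. T1 and T2 only number the nodules of a rat.

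DEN is activated by cytochrome P450 enzymes of hepatocytes and alkylates DNA. In the rat it gives rise to foci of altered hepatocytes, and the nodules that follow carry high levels of detoxifying enzymes, of which Gstp1, the placental glutathione S-transferase, is the classic marker. Many of these enzymes are targets of NRF2, a transcription factor that binds antioxidant response elements (ARE) and drives glutathione synthesis, quinone reduction and the pentose phosphate pathway. Hepatocyte nodules commonly lose some of the liver's own functions as well, such as P450 metabolism and plasma protein synthesis. Nodules of the same liver share the animal's hormones, feeding state, time of death and DEN exposure, whereas each may come from its own founder cell.

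The nodule libraries held 20528515 to 39355849 gene counts (median 28746958), and a gene at 1 CPM (counts scaled to library size) had about 28.7 counts in the median library. No pair was a library deposited again, since the counts of T1 and T2 differed by 31.1 to 161 times their sampling variance (chi-square per degree of freedom). The libraries held hepatocyte RNA: all 17 hepatocyte markers were detected, and they summed to 157460 to 307485 CPM in nodules, 230272 to 361040 in NT liver and 347691 to 403199 in untreated liver. Library F03T1 stood apart by reads that aligned to several places, 16.3% of its reads against 7.96% to 10.9% in the other nodules. F06T1 stood apart by reads outside annotated exons, 34.5% against 23% to 28.2%. These shares are of the gene counts and the reads assigned to no gene together. Both rats numbered F were DEN-treated and no untreated rat carried that letter, so results are also given without F03 and F06. Their part in the results was not tested beyond that.

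Nodules of the same liver were more alike than nodules of different rats of the same week, but the margin was small and narrowed without rat F06. Over the 10447 genes with a mean of at least 1 CPM, the absolute difference between T1 and T2 on the log2 CPM scale, averaged over the 8 rats, had a median of 0.24, and the same quantity between nodules of different rats had a median of 0.33. The ratio of these medians was 0.738, and an exact permutation test over all 11025 ways to pair the nodules within their weeks gave p = 0.00181 (two-sided, 20 pairings as extreme). At 14 weeks alone the ratio was 0.639 (exact permutation p = 0.0571) and at 20 weeks alone 0.874 (exact permutation p = 0.0381). Without F03 alone it was 0.681 (exact permutation p = 0.00508) and without F06 alone 0.856 (exact permutation p = 0.0140). Without both it was 0.883 and the test no longer passed 0.05 (exact permutation p = 0.0844).

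**Figure D1:**
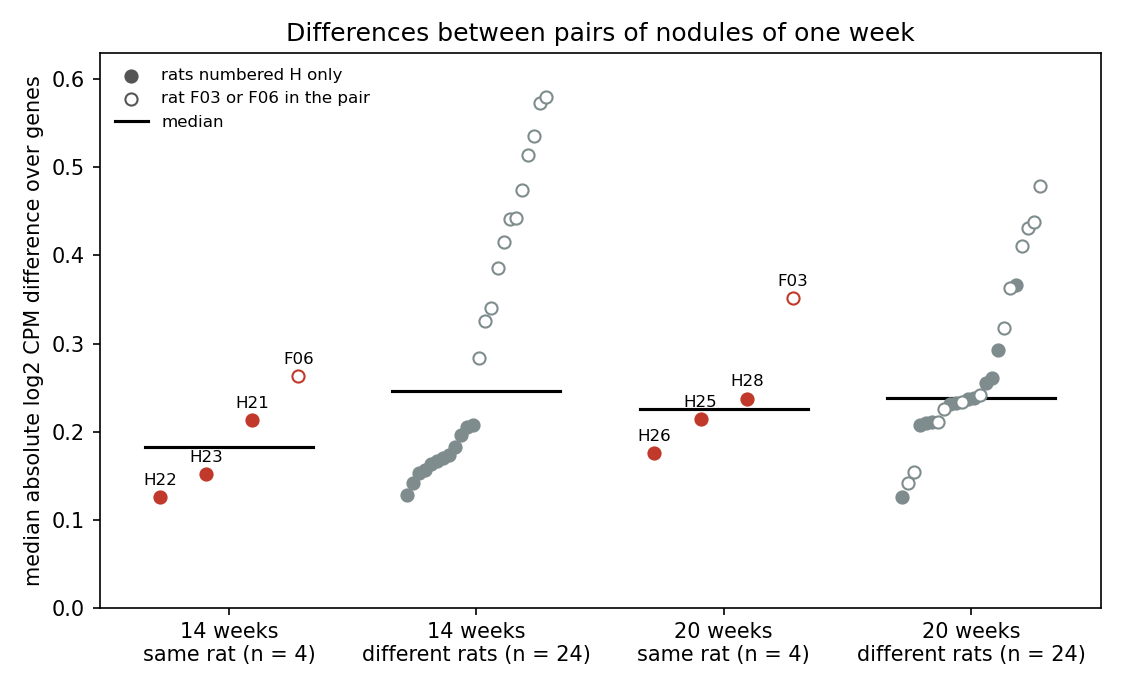
Median absolute log2 CPM difference over 10447 genes for each pair of nodules of 1 week, with pairs of the same rat in red and pairs of different rats in grey, open circles where F03 or F06 is in the pair, and a bar at each median. Pairs of the same rat run from 0.13 to 0.26 at 14 weeks and from 0.18 to 0.35 at 20 weeks, and at 14 weeks the 12 largest differences between different rats all involve F06.

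The 8 livers differed widely in how unlike their nodules were. At 14 weeks the median absolute difference over genes was 0.13 in H22, 0.15 in H23, 0.21 in H21 and 0.26 in F06, and at 20 weeks it was 0.18 in H26, 0.21 in H25, 0.24 in H28 and 0.35 in F03. The other nodule of the same liver was the nearest of the 7 other nodules of its week for 7 of the 16 nodules, both of F06, both of H22 and H23T2, H25T2 and H26T2, and it was the farthest for F03T2. The mean of the rats' values was 0.188 ± 0.062 (SD, n = 4) at 14 weeks and 0.244 ± 0.076 (SD, n = 4) at 20 weeks, a difference smaller than the spread between rats (exact permutation p = 0.314, two-sided, where 0.0286 is the smallest p this design allows).

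Past a 2-fold difference between T1 and T2 were 552 of the 10447 genes (5.28%) in F06, 125 (1.2%) in H21, 49 (0.469%) in H22, 184 (1.76%) in H23, 1169 (11.2%) in F03, 373 (3.57%) in H25, 134 (1.28%) in H26 and 521 (4.99%) in H28. The direction was uneven in most rats. In F03 912 of these genes were higher in T2 and 257 in T1, in F06 397 and 155, and in H26 86 and 48. The other way, 270 were higher in T1 and 103 in T2 in H25, and 138 and 46 in H23. In H21 80 were higher in T1 and 45 in T2, and in H22 42 and 7. H28 was nearly even, with 243 higher in T1 and 278 in T2. In 4 or more of the 8 rats, 107 genes (1.02%) were past 2-fold. That count fell to 57 without H28, 65 without F06 and 66 without F03 or without H25, and 38 of the genes with a mean of at least 10 CPM reached it. Counting error was smaller than these differences at every level, since the median over genes of the median absolute difference was 0.28 at 1 to 10 CPM, 0.17 at 10 to 100 CPM and 0.19 above, against 0.15, 0.060 and 0.023 from counting alone.

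The 20 genes with the largest median absolute difference over the 8 rats were Klhl14, Star, Slc10a4, Cpa1, Vdr, Espn, Pla2g7, A1bg, Havcr1, Mgat3, Mogat2, Misp, Nefl, Mcpt2, Aldh3a1, RGD1565844, Dnaaf1, Elfn1, Heph and Rgs16. Their medians ran from 2.06 for Klhl14 to 1.31 for Rgs16, and the first gene left out, Elovl7, had 1.28. Without F03 and F06, 16 of them were still among the 20 largest and 20 among the 100 largest. These values chose the genes, so they are a description, and since genes were kept by their level in nodules, one that is low in untreated liver could enter only by being higher in nodules.

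Klhl14, a member of the Kelch-like family of substrate adaptors, read 14.7 CPM in T1 and 3.79 in T2 of F06, 11.3 and 3.96 in H21, 23.5 and 7.17 in H22, 8.65 and 1.91 in H23, 0.985 and 8.80 in F03, 12.1 and 0.598 in H25, 17.3 and 18.03 in H26 and 1.72 and 11.1 in H28. The nodules of a liver stood apart in 7 rats and were alike in H26, and which number was higher changed from rat to rat. Levels here and below are scaled over the nodules, the 8 NT and the 8 untreated libraries together, whereas differences are scaled over the 16 nodules. In NT liver Klhl14 read 0.322 CPM in F06, 3.12 in H21, 4.79 in H22, 2.69 in H23, 0.520 in F03, 1.35 in H25, 2.91 in H26 and 2.15 in H28, and in untreated liver 0 to 0.0390. The more expressing nodule was above the NT liver of its rat in 8 of 8 rats, and both nodules were in 5. The largest gap, 18.9-fold after the prior count, was in H25, where T2 was below the liver around it. The absolute difference averaged 2.16 (log2) within rats and 1.77 between nodules of different rats.

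Star carries cholesterol into mitochondria for steroid synthesis. It read 8.55 CPM in T1 and 0.428 in T2 of F06, 6.94 and 1.73 in H21, 15.7 and 5.71 in H22, 15.02 and 2.77 in H23, 0.796 and 5.04 in F03, 4.46 and 2.88 in H25, 5.42 and 24.1 in H26 and 3.35 and 10.1 in H28, against 0.299 to 4.79 CPM in NT and 0.0516 to 0.505 in untreated liver. F06 spanned the widest gap of the 8 pairs, from above every NT sample to within the untreated range. Vdr, the vitamin D receptor, read 2.51 CPM in T1 and 0.626 in T2 of F06, 7.51 and 4.10 in H21, 13.2 and 6.43 in H22, 22.7 and 5.01 in H23, 0.644 and 5.31 in F03, 8.03 and 2.23 in H25, 10.6 and 24.9 in H26 and 3.35 and 19.1 in H28, against 0 to 0.117 CPM in untreated liver. Its median absolute difference was 1.90 (SD over the 8 rats 0.73), and it differed past 2-fold in 7 of 8 rats. Pla2g7, the lipoprotein-associated phospholipase that breaks down platelet-activating factor, was better expressed and read 80.9 CPM in T1 and 17.3 in T2 of F06, 38.6 and 36.1 in H21, 104 and 70.7 in H22, 122 and 28.2 in H23, 39.03 and 59.2 in F03, 63.3 and 12.05 in H25, 72.4 and 186 in H26 and 28.2 and 151 in H28, with 0.269 to 0.872 CPM in untreated liver. Its nodules were close in H21 and past 2-fold apart in F06, H23, H25, H26 and H28.

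Others of the 20 have their best known roles outside hepatocytes. Nefl, the light neurofilament chain of neurons, ranged from 5.83 to 183 CPM over the nodules against at most 0.0390 CPM in untreated liver, and differed most in H25 (41.7 in T1 and 5.93 in T2). Dnaaf1, which helps to assemble the dynein arms of cilia, read 75.7 and 6.01 CPM in H25, 32.6 and 224 in H28, and at most 0.0781 in untreated liver. Heph, a copper ferroxidase of iron export, read 8.17 and 40.1 CPM in H28 and 52.6 and 22 in H22. The pancreatic carboxypeptidase Cpa1 went from 5.91 CPM in T1 to 0.235 in T2 of H21 and from 5.26 to 20.4 in H28. Slc10a4, Espn, Havcr1, Mgat3, Mogat2, Misp, Elfn1 and RGD1565844 were low, with at most 16.1 CPM in a nodule. Mcpt2, a mast cell protease, was highest in H21T2 (6.24 CPM) and F03T2 (6.19 CPM).

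A1bg and Rgs16 ran against most of the 20 in sign. A1bg, a plasma glycoprotein, read 0.494 CPM in T1 and 2.01 in T2 of F06, 43.6 and 12.4 in H21, 9.47 and 27.7 in H22, 8.11 and 25.1 in H23, 6.02 and 12.2 in F03, 7.70 and 43.03 in H25, 17.1 and 4.67 in H26 and 11.8 and 3.99 in H28, and no nodule exceeded the highest NT sample (55.8 CPM). In 6 of 8 rats the nodule with more A1bg was the one with less Klhl14. Rgs16, which speeds the shutdown of G protein signals, was lower in nodules than in the NT liver of their rat in 8 of 8 rats, and read 1.60 CPM in T1 and 0.186 in T2 of H28 against 2.54 in its NT liver.

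The same nodule of a liver tended to be the high one for most of the 20 genes. The sign of T1 minus T2 was that of Klhl14 in 8 of 8 rats for 10 of the 20 (Klhl14 included) and in 7 or 8 rats for 16. Over all 10447 genes 2.89% had the same sign in 8 rats and 7.83% in 7. The 20 were chosen for large values of these same differences, and most genes differed far less. The shares are therefore not a like comparison, and no conclusion is drawn from them. T1 was higher for 18 of the 20 genes in F06, 15 in H21, 19 in H22, 17 in H23 and 17 in H25, and for 3 in F03, 4 in H26 and 2 in H28. Genes measured in the same pair of libraries are not independent, and the Klhl14 difference in H26 was near 0 (-0.05).

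**Figure D2:**
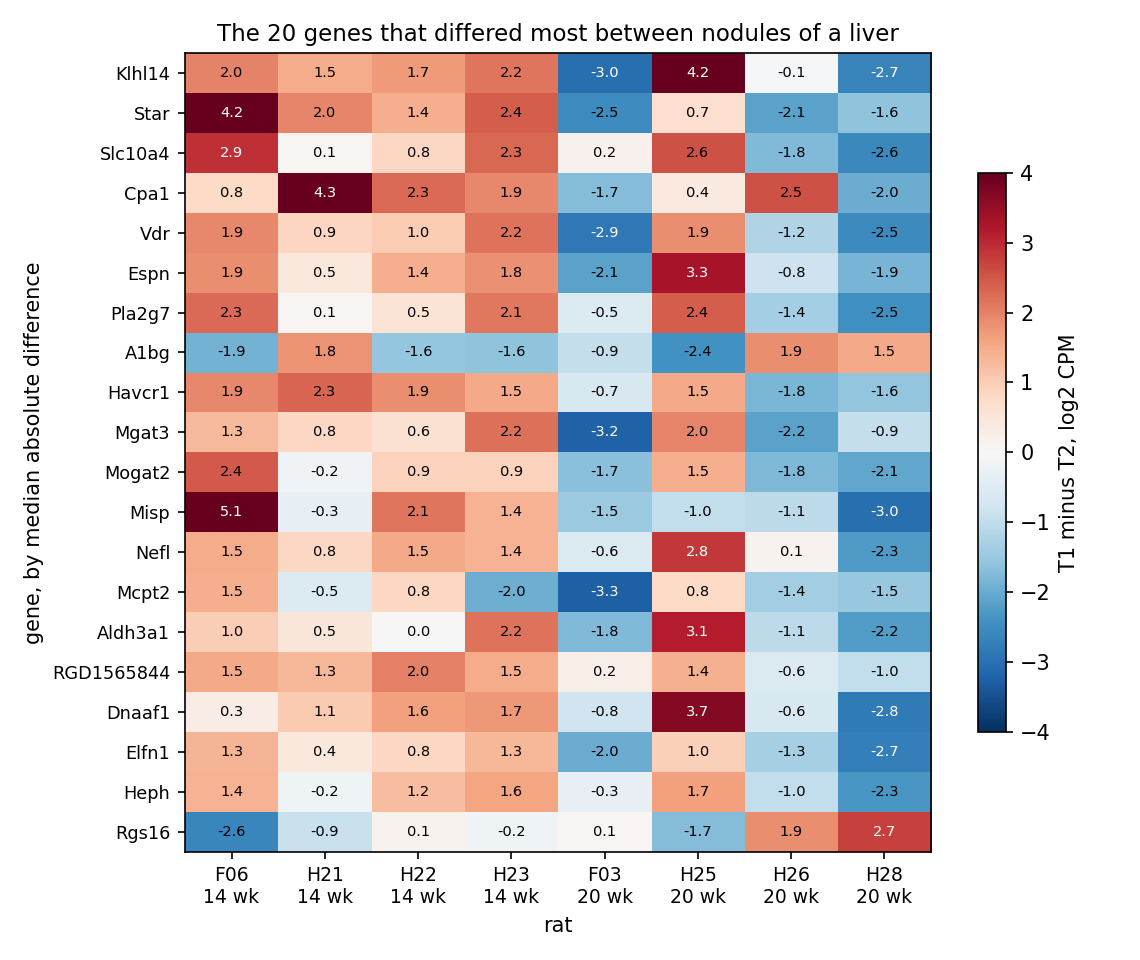
T1 minus T2 difference (log2 CPM) of the 20 genes with the largest median absolute difference, with genes in rows and the 8 rats in columns, red where T1 and blue where T2 was higher, and colours ending at 4. Columns F06, H21, H22, H23 and H25 are mostly red and columns F03, H26 and H28 mostly blue, and A1bg and Rgs16 run against the rest.

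The spread was carried from 1 week to the other at the level of genes. The 100 genes with the largest mean absolute difference at 14 weeks (median 0.99) had a median of 1.11 at 20 weeks, in other rats, against 0.27 over all genes. All 100 were above that median and 41 were among the 100 largest at 20 weeks as well. The 34 of them with a mean of at least 10 CPM also had a median of 1.11, so the carry-over was not limited to weakly expressed genes.

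Enzymes of preneoplastic foci and NRF2 targets had the largest median differences of the 35 gene lists. Of 14 measured focus enzymes and oncofetal genes, 12 were above the median of all genes, their median absolute difference was 0.57 against 0.20 over all genes, and 23.2% of their T1 to T2 differences were past 2-fold against 3.72%. Of 15 NRF2 targets, 13 were above it, with a median of 0.54 and 12.5% past 2-fold, a share that 6 other lists exceeded, among them the ductular list with 17.7%. Without F03 and F06 the medians were 0.59 for NRF2 targets, 0.51 for P450 genes and 0.47 for the preneoplastic list. The lists share 2 genes, Nqo1 among them. The lists were described by counts and medians only, with no test of a list.

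Aldh3a1, an aldehyde dehydrogenase that marks rat liver foci, had the largest difference of its list and read 38.05 CPM in T1 and 19.6 in T2 of F06, 115 and 82.4 in H21, 146 and 144 in H22, 276 and 61.3 in H23, 76.96 and 272 in F03, 217 and 25.4 in H25, 315 and 659 in H26 and 77.1 and 352 in H28, with 0 to 0.103 CPM in untreated liver. The nodules were alike in H22, where NT liver was as high (146 CPM), and differed past 2-fold in 5 rats. In H25 the lower nodule was still above its NT liver (11.5 CPM). Akr1b10 and Akr1b8, aldo-keto reductases, had median absolute differences of 0.97 and 0.92. Gpc3, a cell surface proteoglycan used as a marker of liver cancer, had 0.84 and was highest in H28T2 (10.5 CPM). Gstp1 itself read 2232 CPM in T1 and 1246 in T2 of F06, 2719 and 2311 in H21, 3638 and 3076 in H22, 2726 and 1665 in H23, 3244 and 2196 in F03, 1969 and 811 in H25, 2864 and 3202 in H26 and 2454 and 4602 in H28. All 16 nodules were far above untreated liver (7.89 to 12.02 CPM) and both nodules of a rat were above its NT liver in 8 of 8 rats, yet only H25 differed past 2-fold. Afp, the fetal albumin relative, was at the low end (0.20), with H26 as its exception (57.2 CPM in T1 and 21.9 in T2).

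**Figure D3:**
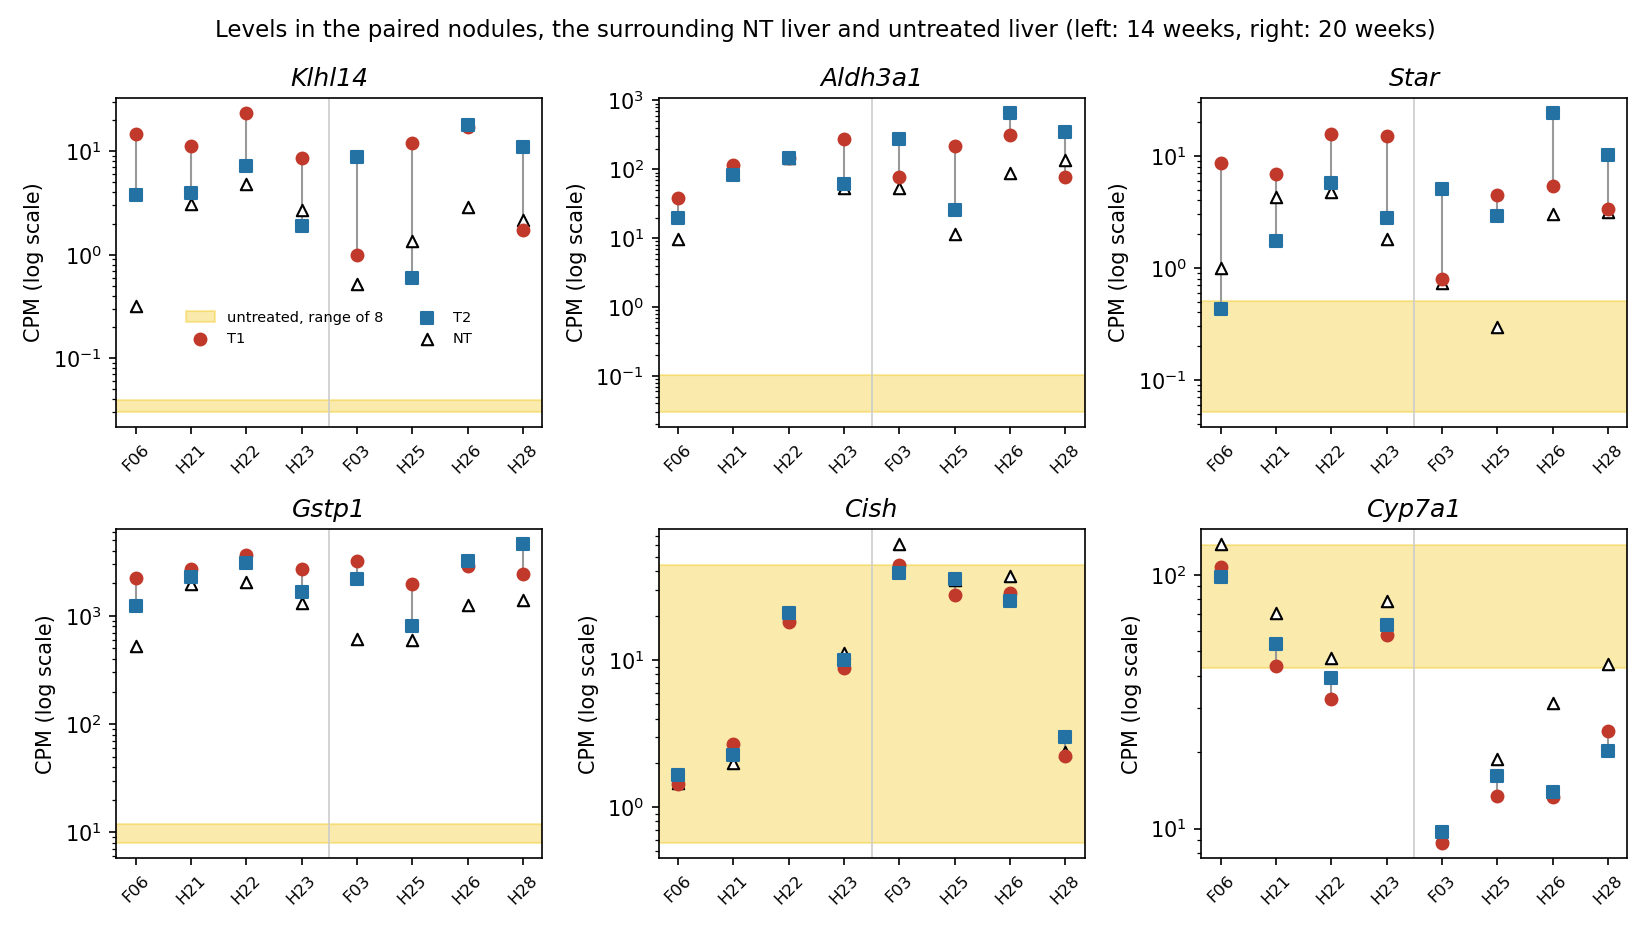
CPM (log scale) of 6 genes in T1 (circles), T2 (squares) and NT liver (triangles) of each rat, with a line joining the nodules of a rat and a yellow band for the range of the 8 untreated livers, drawn from near the bottom of the axis where the lowest was 0. Klhl14, Aldh3a1 and Star show long lines, Gstp1 shorter ones far above the band, and Cish and Cyp7a1 almost none, with the rats far apart.

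Among the NRF2 targets, Slc7a11, the cystine carrier that feeds glutathione synthesis, led with 1.18 and never differed by less than 0.67. It read 41.7 CPM in T1 and 19.9 in T2 of F06, 141 and 58.2 in H21, 169.7 and 106 in H22, 199.6 and 56.99 in H23, 46.8 and 91.4 in F03, 99.2 and 36.1 in H25, 141 and 272 in H26 and 62.6 and 182 in H28, against at most 0.234 CPM in untreated liver. The nodule richer in Slc7a11 was also richer in Klhl14 in 8 of 8 rats. The quinone reductase Nqo1 had 0.83, and Gclc and Gclm, the subunits of the rate-limiting enzyme of glutathione synthesis, had 0.77 and 0.74. Hmox1, which degrades heme, had the smallest difference of the list (0.16).

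RefSeq promoters (build GRCr8, not the rn6 build of the counts) were matched for 12 of the 15 NRF2 targets, and the ARE core TGACNNNGC was searched on both strands in the 250 bases before each start. It lay in 3 of the 12, in Gstp1 as 1 of 13 matched focus genes, and in 1 of 12 matched genes of the 20 with the largest difference (Misp), against 10.2% of 27457 promoters. The stretches of the NRF2 targets and Gstp1 follow, 5′ to 3′ on the gene's strand with the match in capitals, to show the letters behind the group's name. A match is a description and not a binding site.
Gclm (chr2:213031953-213031981, plus strand): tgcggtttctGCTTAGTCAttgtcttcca
Me1 (chr8:96540393-96540421, minus strand): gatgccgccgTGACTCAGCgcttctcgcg
Gpx2 (chr6:101230034-101230056, minus strand): acctggtttcGCTAAGTCAttct
Gstp1 (chr1:210769748-210769776, minus strand): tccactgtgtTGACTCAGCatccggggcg

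The genes that carry such a match did not differ alike. Gclm and Gpx2, a glutathione peroxidase, had median absolute differences of 0.74 and 0.54, Gstp1 had 0.67 and Misp 1.44, whereas Me1, the NADPH-producing malic enzyme, had 0.19, below the median of all genes.

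In each liver the NRF2 targets and 6 of the hepatocyte function lists had median differences of opposite sign. The median T1 minus T2 difference of the 15 NRF2 targets was 0.21 in F06, 0.51 in H21, 0.41 in H22, 0.90 in H23, -0.31 in F03, 0.87 in H25, -0.56 in H26 and -0.64 in H28. That of the 17 hepatocyte core genes was -0.27 in F06, -0.22 in H21, -0.29 in H22, -0.31 in H23, 0.31 in F03, -0.18 in H25, 0.19 in H26 and 0.40 in H28, and that of 23 drug-metabolising P450 genes -0.22 in F06, -0.58 in H21, -0.45 in H22, -0.46 in H23, 0.53 in F03, -0.46 in H25, 0.30 in H26 and 1.01 in H28. The signs were opposite to those of the NRF2 list in 8 of 8 rats for both lists, and also for the periportal, acute phase, fatty acid oxidation and bile acid lists, in 6 of 6 rats without F03 and F06 and, for the hepatocyte core, in 7 of 8 rats with scaling by total counts alone. The pericentral and fatty acid synthesis lists were opposite to the NRF2 list in 7 of 8 rats, and cholesterol synthesis in 4 of 8. In F06 the pericentral median had the sign of the NRF2 list (0.13, with 12 of 17 genes higher in T1). Markers of some other cells ran against the hepatocyte core, the ductular list in 7 of 8 rats and the stellate and fibroblast list in 6 of 8. The fat, muscle, pancreas and mesothelium list was opposite to it in 5 rats. The endothelium, B cell, neutrophil and mast cell and red blood cell lists were opposite in 3 each. The macrophage and T and NK cell lists were opposite in 2 each. The part of these cells in the differences was not tested. The ductular median T1 minus T2 difference was 0.03 in F06, 0.40 in H21, 0.21 in H22, -0.29 in H23, -0.81 in F03, 0.71 in H25, -0.09 in H26 and -0.51 in H28. The preneoplastic list had the sign of the NRF2 list in 8 of 8 rats, with the 2 shared genes among its members. Since expression was scaled within each library, a rise of some genes lowers the share of others, and this part was not tested beyond the scaling alternatives.

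**Figure D4:**
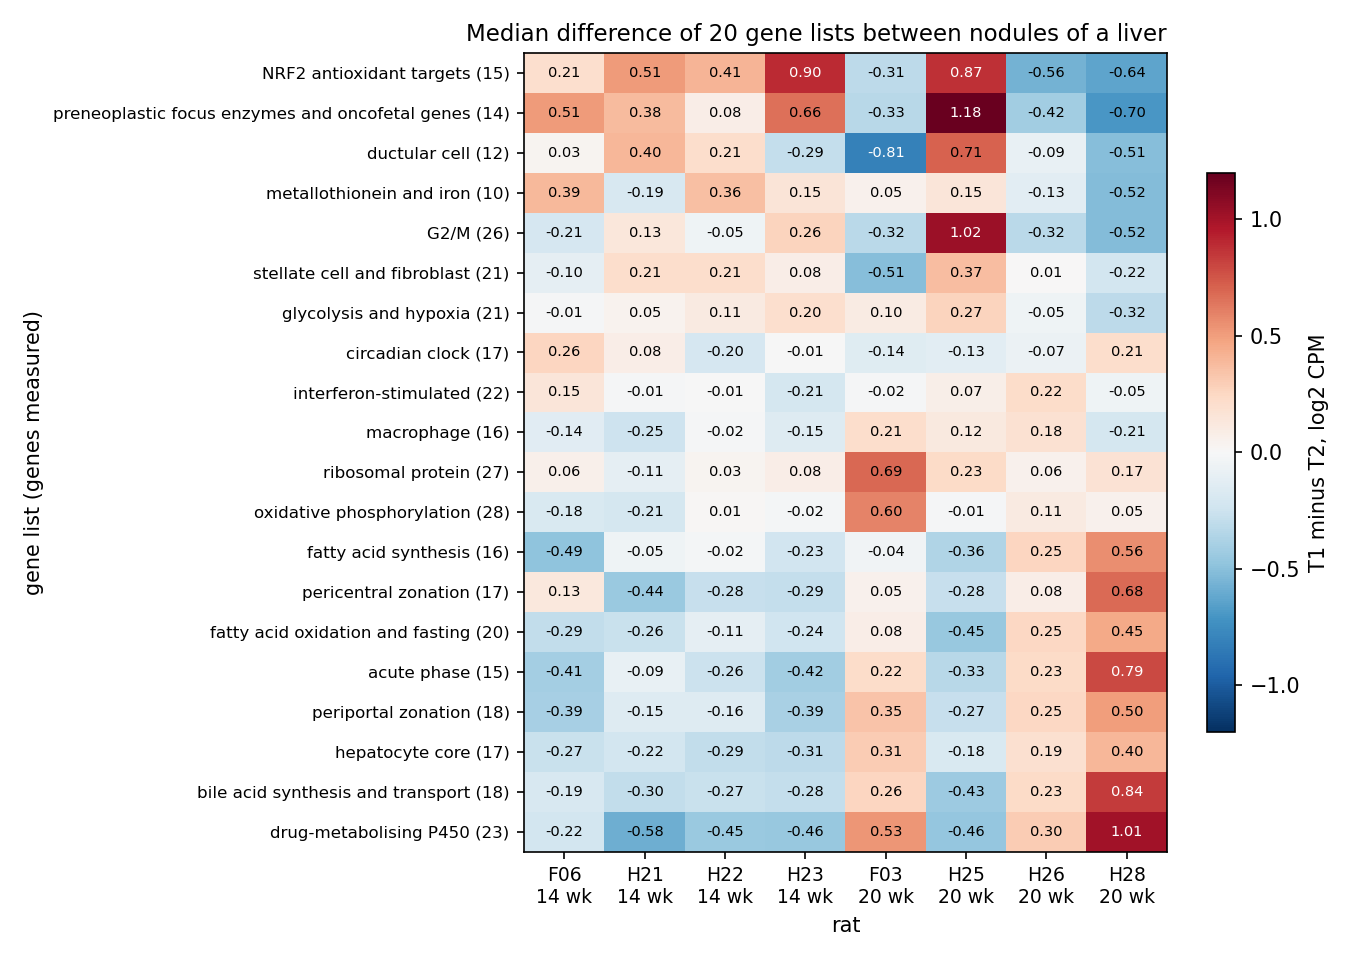
Median T1 minus T2 difference (log2 CPM) of 20 gene lists in the 8 rats, with the number of measured genes in brackets and red where T1 was higher. The NRF2 and preneoplastic rows have the opposite colour of the hepatocyte core and P450 rows in each rat, and the ribosomal and oxidative phosphorylation rows stand out in F03.

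P450 genes had the largest median difference of the hepatocyte lists, 0.48, and all 23 measured members were above the median of all genes. Of their differences 9.24% were past 2-fold, against 10% for fatty acid oxidation. Cyp2c11, the male-specific steroid hydroxylase, read 323 CPM in T1 and 475 in T2 of F06, 121 and 204 in H21, 215 and 297 in H22, 582 and 853 in H23, 1770.1 and 897 in F03, 846 and 1535 in H25, 729 and 544 in H26 and 673 and 137 in H28, all below the untreated range of 3211 to 5613 CPM. Its widest gap was in H28, where both nodules were also below the NT liver of that rat (1301 CPM). Cyp2b1 had 0.79, Cyp2c7 0.61, and the smallest value of the list was Cyp2d1 with 0.27. Fatty acid oxidation genes had a median of 0.44, led by Cyp4a2 (0.83) and Vnn1 (0.82), and bile acid genes 0.32, led by Slc27a5, a bile acid-conjugating enzyme (0.64), and by the uptake carrier Slc10a1 (0.52).

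Hepatocyte core genes moved less than P450 genes, though more than most genes. None of their 136 differences was past 2-fold, against 3.72% over all genes. Their median was 0.25 against 0.20 over all genes, and 15 of 17 were above that value of all genes. Albumin (Alb) read 128615 CPM in T1 and 77019 in T2 of H28 and 138714 and 186324 in H25, against 214213 to 258295 in untreated liver, and had a median absolute difference of 0.35. Ttr, which carries thyroid hormone, had 0.53 and Apob 0.18. Acute phase proteins had a median of 0.34, with C-reactive protein (Crp) at 0.69 and lower in each nodule than in the NT liver of its rat in 8 of 8 rats. Zonation genes had medians of 0.33 for both the pericentral and the periportal list. Cyp1a2, Lect2 and Car3 led the pericentral list (0.56, 0.53 and 0.52), and G6pc, Cps1 and Pck1 the periportal list (0.65, 0.48 and 0.47).

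Proliferation genes differed between nodules to a degree that varied from liver to liver. The 26 measured G2/M genes had a median T1 minus T2 difference of -0.21 in F06, 0.13 in H21, -0.05 in H22, 0.26 in H23, -0.32 in F03, 1.02 in H25, -0.32 in H26 and -0.52 in H28. In H25 and H23 all 26 were higher in T1, and in H26 and H28 24 of 26 were higher in T2. Mki67, a marker of cycling cells, read 23.9 and 10.5 CPM in H25 against 58.9 and 59.5 in H22, where the nodules were alike. Over the 8 rats the list's median absolute difference was 0.29. S phase genes had 0.23, and in H28 18 of 22 were higher in T1, the nodule lower in most G2/M genes.

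Among markers of other cells, the ductular list had the largest median difference. The 12 measured ductular markers had a median of 0.45, with Cd24 at 0.82, Cftr, a chloride channel of bile ducts, at 0.69 and Sox4 at 0.64. The list's 14 genes in the count tables summed to 104 to 354 CPM in nodules, 80.4 to 183 in NT liver and 52.8 to 67.8 in untreated liver. Cd24 was highest in H28T2 (61.6 CPM, 14.8 in T1) and H26. Stellate and fibroblast genes had 0.29, with the matrix proteoglycan Lum at 1.18, the collagen cross-linking Lox at 0.89 and Mgp at 0.72, endothelial genes 0.22, macrophage genes 0.21 and T and NK cell genes 0.21, near the 0.20 of all genes. Sums ranged from 668 to 1295 CPM for stellate genes, 313 to 481 for endothelium, 819.9 to 1480.0 for macrophages, 19.8 to 52.4 for T and NK cells, 7.61 to 19 for B cells, 6.08 to 39.9 for neutrophils and mast cells and 111 to 949 for red blood cells, whose highest sum lay above the 384 CPM of the highest untreated liver. Of the 14 fat, muscle, pancreas and mesothelium markers in the count tables, 5 were at 0 in all nodules and 3 passed the level of 1 CPM. Among them the mesothelial Msln read 8.45 and 20.7 CPM in F03 and 2.95 and 11.5 in H23. Whether such cells had a part in the differences was not tested.

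The remaining lists lay between. Red blood cell genes had a median of 0.40 (0.26 without F03 and F06), immediate early genes 0.38 (Gadd45g 0.75, Fos 0.57), growth factors and receptors 0.36 (Igfbp2 0.84, Met 0.69, Insr 0.60), metallothionein and iron genes 0.33 (Slc40a1, the iron exporter, 0.71) and fatty acid synthesis 0.33 (Pnpla3 0.57, Acaca 0.51). Glycolysis and hypoxia genes had 0.28, with Ndrg1 at 0.93 and Pgk1 at 0.11, imprinted genes 0.26 (H19 0.57), interferon-stimulated genes 0.23 (Isg15 0.42), MHC genes 0.23 (RT1-Bb 0.34), cholesterol synthesis 0.23, B cell genes 0.23 (0.13 without F03 and F06), neutrophil and mast cell genes 0.29 (Cpa3 1.10), ER stress genes 0.22 (Mthfd2 0.62), p53 targets 0.22 (Gdf15 0.56, Ccng1 0.08), clock genes 0.20 (Per2 0.47, Clock 0.13) and heat shock genes 0.19. Oxidative phosphorylation (0.13, 28 genes) and ribosomal proteins (0.13, 27 genes) were the most even lists, except in F03, where their medians were 0.60 and 0.69 higher in T1, the library with the high share of reads placed in several positions.

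The 5 largest differences of a liver often included genes outside the 20. In H28 the growth factor gene Fgf19, named as the files spell it, had 453 counts in T1 and 8 in T2, or 14.2 and 0.186 CPM. It was at most 0.299 CPM in the other 14 nodules and had 0 counts in the NT liver of H28 and in the untreated livers. It is known as a bile acid-regulated hormone of the gut that lowers bile acid synthesis, and Cyp7a1, the rate-limiting enzyme of that synthesis, read 24.4 CPM in T1 and 20.2 in T2 of H28. The other nodule of H28 was the high one for Npy1r, a neuropeptide Y receptor (0.626 and 9.28 CPM), Trim54 (10.9 and 104) and Cited1 (1.60 and 12.01), while Stac3 was high in T1 (53.5 and 6.91).

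In F06 the largest differences among genes reaching 10 CPM in 1 of the nodules (with scaling over the 16 nodules, here and for the next rats) were RT1-M5, a nonclassical MHC gene (16.6 CPM in T1 and 1.68 in T2), Slc16a5, a monocarboxylate transporter (48.2 and 8.46), and the bilirubin-conjugating Ugt1a1 with its neighbour Ugt1a5 in the other direction (7.30 and 41.8 for Ugt1a1), beside Star. Ugt1a genes share exons, so their counts can be split uncertainly. In F03 Nrp2, a semaphorin receptor, read 1.67 and 14.9 CPM, Bicc1 1.25 and 10.8, Cmtm6 1.29 and 9.31 and the bicarbonate carrier Slc4a4 1.44 and 9.89, all lower in T1, while Cib2 was higher there (9.02 and 1.15). In H21 Lrtm2 (2.97 and 12.3 CPM), Slc25a47, a mitochondrial carrier of liver (35.1 and 111), and Stac3 (2.94 and 8.82) were lower in T1, and Ugt2b7 was higher (24.5 and 7.68).

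H22, the most even pair, still differed in Cpa1, RT1-M5, Klhl14, Serpinb1a (31.6 CPM in T1 and 9.78 in T2) and Ccnd2, a cyclin of G1 (9.07 and 2.48), all higher in T1. In H25 Hap1 (11.5 CPM in T1 and 1.99 in T2) joined Klhl14, Dnaaf1, Aldh3a1 and Nefl, and in H26 the nonclassical RT1-M4 (2.50 and 10.1) joined Cpa1, Mgat3, Star and A1bg. In H23 the 5 largest were Star, Slc10a4, Vdr, Aldh3a1 and Pla2g7. RT1 genes are near copies of each other, so their counts are uncertain.

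Other genes differed more between rats than between the nodules of a rat. An edgeR quasi-likelihood F test between rats of the same week, with the nodules of a rat as replicates and Benjamini-Hochberg adjustment, called 1322 of 10447 genes (12.7%) at an adjusted p of 0.05. That count rests on F06. Without F06 4 genes were called and without F03 and F06 7, which were Cish, Igf2, Bcl6, Foxa2, Net1, Bhlhe40 and Dusp1, whereas without F03 the count was 3150 and by DESeq2 with all rats it was 4519. Without H22 it was 417 and without H23 619.

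Cish, a STAT5-induced inhibitor of growth hormone signalling, had the smallest adjusted p of edgeR (3.01e-06) and kept it without F03 and F06 (1.19e-04). It read 1.44 CPM in T1 and 1.65 in T2 of F06, 2.71 and 2.26 in H21, 18.2 and 20.7 in H22, 8.89 and 10.02 in H23, 44.3 and 38.8 in F03, 27.7 and 35.6 in H25, 28.5 and 25.3 in H26 and 2.22 and 3.02 in H28. Within rats the nodules differed by 0.25 on average (log2), and nodules of different rats of a week by 2.06. NT liver followed its own rat (1.45 CPM in F06, 1.99 in H21, 20.3 in H22, 11.1 in H23, 61.2 in F03, 35.1 in H25, 37.1 in H26 and 2.36 in H28), and untreated rats spanned 0.568 to 43.9 CPM as well. Igf2, the fetal growth factor, read 7.81 and 6.78 CPM in the nodules of H26 and at most 1.55 in the other 14 (edgeR adjusted p 0.0040, and 0.010 without F03 and F06). Unlike Cish, it was low in the NT liver of that rat (0.901 CPM). Its imprinted neighbour H19 read 98.7 and 77.5 CPM in H26 against 23.6 in its NT liver.

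Cyp7a1 read 108 CPM in T1 and 98.1 in T2 of F06, 43.8 and 53.2 in H21, 32.5 and 39.1 in H22, 57.7 and 63.2 in H23, 8.75 and 9.71 in F03, 13.4 and 16.1 in H25, 13.4 and 14 in H26 and 24.4 and 20.2 in H28. Its nodules differed by at most 0.29 (log2) within any rat, and its call (edgeR adjusted p 0.0029) was lost without F03 and F06 (0.099). The clock genes Dbp, Nr1d1 and Nr1d2 stood apart in F06, where Dbp read 21.1 and 15.5 CPM against 3.37 to 5.19 in the other nodules, and their adjusted p without F03 and F06 were 0.85, 0.83 and 0.74 (edgeR). The neutrophil genes S100a9 and Csf3r, the hemoglobin chaperone Ahsp and the phosphatase Dusp6 completed the 10 smallest adjusted p with all rats. Of these, S100a9, Csf3r and Dusp6 were not called without F03 and F06, and Ahsp was then under the level needed for the test. By list, the test called 16 of 22 S phase, 19 of 26 G2/M, 10 of 17 clock, 13 of 20 immediate early and 12 of 20 fatty acid oxidation genes beside the 12.7% of all genes, and 0 or 1 of each without F03 and F06. By edgeR 5 of 15 NRF2 targets, 2 of 14 focus enzymes, 4 of 23 P450 genes and 0 of 12 ductular markers were called, by DESeq2 10, 8, 18 and 6 beside 43.3% of all genes, and by edgeR without F03 and F06 0 of each beside 0.0671% of all genes. For genes called between rats, the rat with the highest nodules was also the rat with the highest NT liver in 63.7% of gene and week combinations, against 44.6% for genes not called. Nearly all of these calls were lost without F06, and the 2 shares were not computed without F03 and F06.

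Among genes with a mean of at least 10 CPM, Dbr1, Psmd7, Ccdc25, Lrrc42, Smg6, Colgalt1, Thoc7, Sdccag3, Hnrnpm and Cycs had the smallest median absolute differences, 0.0165 for the RNA lariat debranching enzyme Dbr1 to 0.0253 for cytochrome c (Cycs). Psmd7, a proteasome subunit, read 97.9 and 97.9 CPM in H22 and 97.1 and 97.7 in H23, and even it differed by 1.22-fold in F03 (114 and 97.9).

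No gene passed the test for a difference that followed the nodule number. T2 against T1 with rat as a block gave 0 of 10447 genes (0%) by edgeR and 0 by DESeq2, with 263 at an unadjusted p under 0.05 (91 higher and 172 lower in T2), and the interaction with week gave 0, with 1455 at an unadjusted p under 0.05.

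No gene of at least 1 CPM passed the test for a spread between nodules of a liver larger than that between untreated rats with all 8 pairs. A Levene-type test in limma called 0 of 9555 genes (0%) with a smallest adjusted p of 0.103, while 1968 had an unadjusted p under 0.05, 1756 of them with the larger spread between nodules. With no filter on level it called 199 genes against untreated and 3 against NT liver. Without F03 and F06 it called 67 of 9544 genes with the larger spread between nodules and 1 with the smaller. In simulated counts with all 8 pairs the test called 0.33% of unchanged genes, so part of the 67 may be false calls. The median spread over genes, 1 value per pair or sample, was 0.145 ± 0.048 (SD, n = 8) between nodules and 0.103 ± 0.019 (SD, n = 8) between untreated livers (exact permutation p = 0.0298, two-sided), and without F03 and F06 the difference was 0.022 (exact permutation p = 0.121). Against NT liver 0 of 10230 genes (0%) were called (smallest adjusted p 0.0809 by limma, 1151 at an unadjusted p under 0.05), with 0.151 ± 0.049 (SD, n = 8) between nodules and 0.125 ± 0.022 (SD, n = 8) between NT samples (exact permutation p = 0.203). Nodules of a liver were thus set against samples of different rats. Between 20 and 14 weeks 0 of 10447 genes (0%) differed in spread by limma, with 376 at an unadjusted p under 0.05, 340 of them larger at 20 weeks.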

How the data were processed

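The authors sequenced stranded mRNA libraries (TruSeq, paired-end) and deposited whole-number read counts per gene, made with STAR 2.7.1a on rn6 and HTSeq on exons of the annotated strand. The 5 summary lines that name no gene were left out of library sizes. Shares were taken of the gene counts and these lines together. Reads outside features made up 23% to 34.5%, reads aligned to several places 7.96% to 16.3% and ambiguous reads 0.861% to 1.15%.

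Of 17337 genes, 10447 with a mean of at least 1 CPM over the nodules were kept. Differences are T1 minus T2 of log2 CPM (TMM scaling over the 16 nodules, prior count 2). Printed levels are CPM scaled over 32 libraries. Two-sided tests were the exact permutation of pairs, edgeR 4.0.16 quasi-likelihood (R 4.3.3), a Levene-type test in limma 3.58.1 (absolute pair differences against absolute deviations of other samples from their week's mean, each scaled to the same expectation under equal spread) and, as an alternative, DESeq2 1.42.0, at an adjusted p of 0.05 (Benjamini-Hochberg). The edgeR tests between rats and of T2 against T1, the Levene-type test against untreated liver and the ranking by median absolute difference were tried on simulated counts. The other tests, the exact permutation of pairs among them, were not. T1 and T2 of a rat are paired by the animal, as the labels state, so rat is the block. Named genes are the 20 with the largest median absolute difference, the 10 with the smallest adjusted p between rats, the 5 largest per rat with 10 CPM in a nodule, the 3 largest and the smallest of each of 35 lists, the 10 most even with at least 10 CPM, and up to 5 in each direction past the threshold of the spread and T2 against T1 tests, where none passed. Akr1b8, Alb, Bcl6, Bhlhe40, Dusp1, Elovl7, Foxa2, Gclc, Gclm, Gpc3, Gpx2, Gstp1, Me1, Mki67 and Net1 were named after their values were seen. Some genes that the rule names are not reported here. The comparisons, members and lists were chosen with earlier results of these data known. Each nodule was sequenced as 1 library, so technical and biological spread cannot be told apart. The alternatives were other scalings, prior counts and filters, thinned counts and leaving out rats.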

Additional observations from a re-analysis of the deposited data

Results flagged for a closer look

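Of 67 groups of 8 values that were examined for a value far from the rest, 5 held one, where chance gives about 1 in 20. F03 had 1169 genes past 2-fold between its nodules, far above the other 7 rats. Its ribosomal protein genes had a median T1 minus T2 difference of 0.69 and its oxidative phosphorylation genes one of 0.60, each the highest of the 8 rats by a wide gap. In library F03T1 reads aligned to several places made up 16.3% of all reads, those in no gene included, far above the other 20-week nodules. In F06T1 reads outside annotated features made up 34.5%, far above the other 14-week nodules. The part of these library measures in the differences of F03 and F06 was not tested beyond leaving out both rats.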

How the results depend on the processing

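The ratio of differences within and between rats stayed under 1 in all settings run. It was 0.639 at 14 weeks alone (exact permutation p = 0.0571) and 0.883 without F03 and F06 (exact permutation p = 0.0844), where it no longer passed 0.05, and 0.681 to 0.856 leaving out each rat in turn. Genes called between rats numbered 7 without F03 and F06, 4519 with DESeq2 and 4 to 3150 leaving out each rat in turn (4 without F06, 417 without H22, 619 without H23 and 3150 without F03). Genes past 2-fold in at least 4 rats numbered 38 with a mean of at least 10 CPM, where fewer genes were tested, and 57 to 98 leaving out each rat in turn with 4 rats still required (65 without F06, 66 without F03, 66 without H25 and 57 without H28), while 110 genes were past 2-fold in at least 3 of the 6 rats without F03 and F06. Genes with the larger spread between nodules numbered 199 against untreated liver and 3 against NT liver with no filter, and 67 against untreated liver without F03 and F06, while leaving out each rat in turn gave 0. The difference in median spread from untreated liver was 0.022 without F03 and F06 (exact permutation p = 0.121). The cause of these shifts was otherwise not tested. T2 against T1 gave 0 genes with the replicate block and 0 without it. With scaling by total counts alone, NRF2 and hepatocyte core medians were opposite in 7 rats, not 8. Over 13 settings, 1 of 387 values of single genes (Cish with total counts, 0.086) and 4 of 455 list medians moved by more than the spread between rats. Each week alone, the scaling over 32 libraries and the median spread per sample were chosen after seeing the data. So were the count of genes past 2-fold in at least 4 rats, the counts of rats with opposite signs, and their alternatives. Libraries of 20528515 to 39355849 counts limit the weakly expressed genes most, and over genes of 1 to 10 CPM counting alone gave a median difference of 0.15.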
